A study of Mus musculus with 9 samples.

Results

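The genes described are 9 genes of blood coagulation, plasminogen activation and the serpin family, measured in mouse bone marrow-derived macrophages (BMDMs): F3, F7, F10, Procr, Plau, Plaur, Serpinb2, F13a1 and Thbs1. They were taken as a list of gene symbols, and every probe set of the array that is annotated to 1 of these symbols alone was used. This gave 13 of the 45037 probe sets tested, and 9 of the 18193 genes represented. The genes F3, F7, Procr, Plaur, Serpinb2 and F13a1 had 1 probe set each, F10 had 3, and Plau and Thbs1 had 2 each. Another probe set annotated to Thbs1 and a second gene was left out.

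BMDMs are macrophages grown from marrow progenitors in macrophage colony-stimulating factor, and here the marrow came from BALB/c mice of 8 to 10 weeks and was cultured for 7 days, then overnight in medium with 1% serum. The data were 9 Affymetrix arrays in 3 groups of 3. In TNC + TLR4i, the cells received 3 µM TAK-242, a small-molecule inhibitor of Toll-like receptor 4 (TLR4), for 1 h, followed by 6 h with recombinant tenascin C (TNC) at 2 µg/ml. TNC is a glycoprotein of the extracellular matrix. In TNC + vehicle, the cells received 0.1% DMSO for 1 h before the same TNC. For the untreated cells the labels name no addition, and whether they were given DMSO is not stated. The groups hold no cells with inhibitor alone, vehicle alone or an endotoxin control, so a difference between TNC + vehicle and untreated cells holds TNC and vehicle together. The arrays of a group are called biological replicates, but separate mice are not stated, so p-values measure the spread between these samples, which may be technical.

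Coagulation starts when tissue factor, the product of F3, meets factor VII (F7) on a membrane and this pair activates factor X (F10), which turns prothrombin into thrombin. The endothelial protein C receptor (Procr) belongs to the opposing anticoagulant pathway, and factor XIII (F13a1) crosslinks the finished fibrin clot. Fibrin is dissolved by plasmin, which urokinase (Plau), held on the cell surface by its receptor (Plaur), makes from plasminogen, and Serpinb2, also called plasminogen activator inhibitor 2, is a serpin that inhibits urokinase. Thrombospondin 1 (Thbs1) is a matrix glycoprotein known from platelet granules that binds receptors such as Cd36 and Cd47 and can activate latent TGF-β. Monocytes and macrophages are known sources of tissue factor, urokinase, its receptor, Serpinb2 and factor XIII-A.

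The 250 bases before the annotated start of transcription are shown for 4 of the genes called below, because Serpinb2, Procr and F10 moved one way after TNC and F13a1 the other. They come from RefSeq (GRCm38.p6), whose promoter table held 7 of the 9 genes. Plau and Thbs1 were not matched. Capitals mark matches to motifs searched on both strands, namely AP-1 (TGANTCA), C/EBP (TTNNGNAA), the TATA box (TATAAA), an interferon response element (GAAANNGAAA) and the NF-kB consensus. Serpinb2 and F13a1 have 2 start sites each in the table, and the more upstream one is shown.
Serpinb2, chr1:107511173-107511422, plus strand: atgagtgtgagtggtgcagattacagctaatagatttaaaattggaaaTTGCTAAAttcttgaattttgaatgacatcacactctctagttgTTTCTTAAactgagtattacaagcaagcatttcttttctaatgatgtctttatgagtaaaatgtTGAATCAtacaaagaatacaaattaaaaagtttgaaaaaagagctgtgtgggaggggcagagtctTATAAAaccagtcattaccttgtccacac
Procr, chr2:155750967-155751216, plus strand: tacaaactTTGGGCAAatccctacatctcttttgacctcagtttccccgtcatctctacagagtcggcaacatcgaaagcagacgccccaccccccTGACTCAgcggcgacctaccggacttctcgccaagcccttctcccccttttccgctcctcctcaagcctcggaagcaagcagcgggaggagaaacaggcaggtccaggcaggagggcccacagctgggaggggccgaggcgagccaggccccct
F10, chr8:13037058-13037307, plus strand: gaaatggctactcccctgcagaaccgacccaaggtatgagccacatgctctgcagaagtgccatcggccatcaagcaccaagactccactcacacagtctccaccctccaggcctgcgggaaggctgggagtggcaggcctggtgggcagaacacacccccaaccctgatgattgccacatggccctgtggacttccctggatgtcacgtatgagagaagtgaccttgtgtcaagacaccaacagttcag
F13a1, chr13:37050245-37050494, minus strand: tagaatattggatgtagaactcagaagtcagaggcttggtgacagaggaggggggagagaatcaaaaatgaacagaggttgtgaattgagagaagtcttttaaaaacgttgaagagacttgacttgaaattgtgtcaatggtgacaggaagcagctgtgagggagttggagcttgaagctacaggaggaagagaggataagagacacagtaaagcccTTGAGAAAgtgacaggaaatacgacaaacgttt
In the Serpinb2 window the capitals are, from 5′ to 3′, 2 C/EBP matches, an AP-1 match that begins 94 bases before the start, and a TATA box that begins 29 bases before it. The Procr window holds a C/EBP match and then an AP-1 match, which begins 154 bases before the start, and the F13a1 window holds 1 C/EBP match. In the F10 window none of the 5 motifs was found.

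AP-1 is the family of Fos and Jun factors, and its letters were found in 4 of the 7 genes with a window, F3, Procr, Plaur and Serpinb2, against 6.75% of 32851 promoter windows of the same length. The C/EBP letters, bound by factors of myeloid cells among others, were found in 4 of the 7, Procr, Plaur, Serpinb2 and F13a1, against 36.8% of all windows. A TATA box was found in 1 of the 7, against 12.4%. The NF-kB consensus, found in 7.25% of all windows, and the interferon response element, found in 2.98%, matched 0 of the 7. F3 and Plaur, which were not called after TNC, share the AP-1 letters with Serpinb2 and Procr, which were. A gene was counted as matched if any of its windows matched, while the shares count single windows, so the units differ. A match says that the letters are present in a window and nothing about whether a factor is bound.

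Values are log2 signals after robust multiarray averaging (RMA), on which a difference of 1 is a doubling. A gene was called when its limma test gave a Benjamini-Hochberg adjusted p under 0.05 over all probe sets tested and its groups differed by at least 1.5-fold. Markers were summed as linear signal, each gene by its brightest probe set. The 8 macrophage markers summed to 71406 to 73094 in TNC + TLR4i, 78909 to 82785 in TNC + vehicle and 75203 to 75797 in untreated arrays, and Adgre1, a surface marker of mature macrophages, lay at 12.89 to 13.22 in all 9. Of the 8, the Fc receptor Fcgr1 was called higher after TNC (0.94), and Fcgr1 (-1.15) and the TLR4 co-receptor Cd14 (-0.61) were called lower with the inhibitor relative to TNC + vehicle. The 12 endothelial markers summed to 1134 to 1141, 1802 to 2239 and 1199 to 1219 in the same groups, and Kdr, a receptor for vascular endothelial growth factor, was the 1 marker of them called after TNC (1.63), while Kdr (-1.96) and the junction gene Cdh5 (-0.63) were called lower with the inhibitor relative to TNC + vehicle. Kdr was at 9.0, 9.58 and 9.59 in TNC + vehicle and 7.63, 7.84 and 7.80 in untreated arrays, so that it was raised in all 3 TNC + vehicle arrays. In TNC + vehicle replicate 1, 11 of these 12 exceeded the mean of replicates 2 and 3, at a median difference of 0.60, with Pecam1 at 7.45 there against 6.43 and 6.42, and 7 of 8 fibroblast markers were higher by a median of 0.32. The 8 platelet markers measured of 10 summed to 1710 to 1897 in TNC + TLR4i, 2723 to 2945 in TNC + vehicle and 1871 to 2089 in untreated arrays. Of them only the chemokine Pf4 was called, higher after TNC (0.99) and lower with the inhibitor relative to TNC + vehicle (-1.14), while the platelet integrin Itga2b lay at 7.61 to 7.90 over all 9. The 8 fibroblast markers summed to 13981 to 16986 in TNC + TLR4i and 14194 to 16329 in TNC + vehicle. In untreated arrays they summed to 15473 to 18139, and Col1a2, the brightest, lay at 13.12 to 13.37 over all 9 arrays. None of the fibroblast, hepatocyte and neutrophil markers was called in any comparison. The 8 neutrophil markers measured summed to 1081 to 1273 in TNC + TLR4i, 1093 to 1555 in TNC + vehicle and 1049 to 1800 in untreated arrays. In untreated replicates 1, 2 and 3, S100a8 was at 7.74, 8.71 and 7.63, and Ngp at 7.60, 8.52 and 7.31. Mpo, at 6.76, 6.70 and 6.74, and Cxcr2, at 6.35, 6.16 and 6.31, were not raised in replicate 2. Calls below that appear without untreated replicate 2 leave out this array. The part of other cells in the results below was not tested, and results are given without TNC + vehicle replicate 1 where they move.

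After TNC, the 9 genes split. Serpinb2, F10 and Procr rose, by 2.74-, 1.87- and 1.62-fold relative to untreated cells, and Thbs1 and F13a1 fell, by 2.24- and 1.72-fold. Tissue factor, factor VII, urokinase and its receptor were not called. Thus 3 of the 9 were called higher, where 3.74% of all genes were, and 2 were called lower, where 4.05% of all genes were. The median difference of the 9 was 0.21, beside 0.01 over all genes. The study picked F10 and Serpinb2 from these same arrays for its own list of TNC-induced secreted factors, so their rise is not independent evidence. In whole cultures, fewer cells that express a gene and less of its RNA per cell cannot be told apart.

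With the inhibitor before TNC, all 5 of these differed from TNC + vehicle in the opposite direction, and 3 of them were called. Relative to TNC + vehicle, Serpinb2 fell 3.29-fold and F10 1.89-fold, Thbs1 rose 2.17-fold, and the other 6 were not called. This is 2 of 9 called lower, where 4.05% of all genes were, and 1 called higher, where 4.25% of all genes were, and the median was -0.22, beside 0.0 over all genes. Relative to untreated cells, 0 of the 9 were called in TNC + TLR4i, where 0.0605% of all genes were called higher and 0.198% lower. Before adjustment, and with no minimum fold, limma's p was under 0.05 for Procr on the higher side and for Serpinb2 and F13a1 on the lower side. These comparisons share arrays, so the values of each are given side by side and none supports another.

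**Figure D1:**
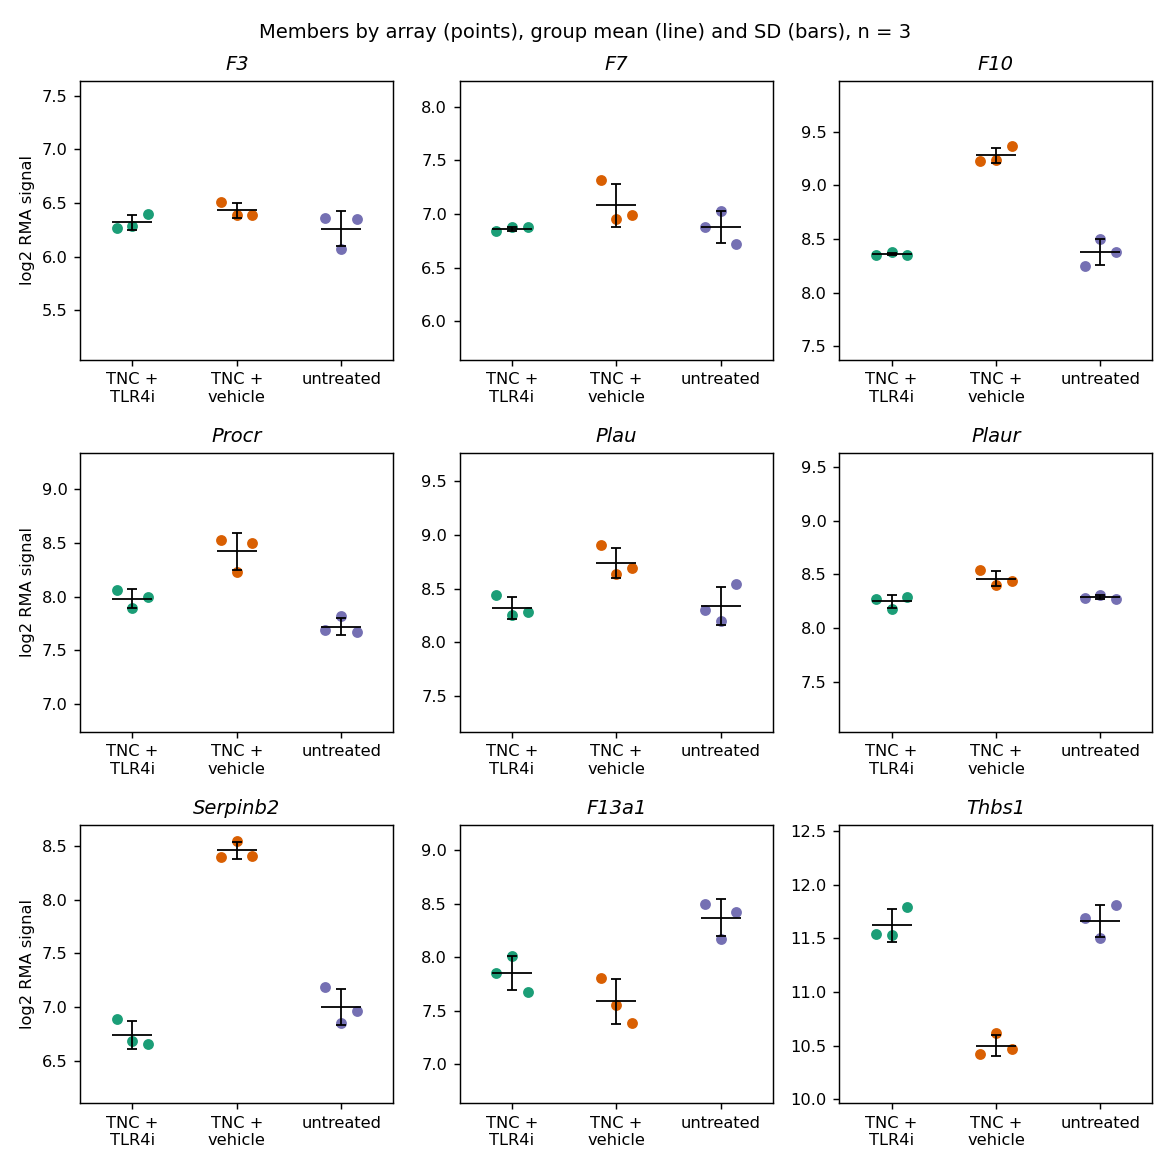
Log2 RMA signal of the 9 genes in each array, with points for replicates 1 to 3 from left to right, a line for the group mean and bars for the SD (n = 3), and the groups in the order TNC + TLR4i, TNC + vehicle and untreated. Every panel spans the same number of log2 units, so that a step of the same height is the same difference in every panel. Serpinb2 and F10 stand highest and Thbs1 lowest in the TNC + vehicle arrays.

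The 3 genes that start coagulation gave 1 call. Tissue factor (F3) was at 6.27, 6.28 and 6.40 in TNC + TLR4i, 6.51, 6.39 and 6.39 in TNC + vehicle and 6.36, 6.07 and 6.35 in untreated arrays. All 9 lie near the floor of the arrays, where RMA understates folds, and although the TNC + vehicle arrays were all above the untreated ones, the gap was 0.03. TNC + vehicle differed from untreated by 0.17 ± 0.09 (SE; 95% interval -0.02 to 0.36; adjusted p = 0.192), TNC + TLR4i differed from TNC + vehicle by -0.12 ± 0.07 (adjusted p = 0.299), and TNC + TLR4i from untreated by 0.06 ± 0.08 (adjusted p = 0.933). The upper bound of the first interval lies below 1.5-fold on the array scale, which near the floor does not bound the fold in RNA.

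Factor VII (F7), the protease that tissue factor binds, was at 6.84, 6.88 and 6.88 in TNC + TLR4i, 7.32, 6.95 and 6.99 in TNC + vehicle and 6.88, 7.03 and 6.72 in untreated arrays. The TNC + vehicle value of 7.32 is that of replicate 1, and the others overlapped the untreated arrays. The differences were 0.21 ± 0.11 for TNC + vehicle against untreated (95% interval -0.03 to 0.44; adjusted p = 0.206) and -0.22 ± 0.09 for TNC + TLR4i against TNC + vehicle (adjusted p = 0.123). Without TNC + vehicle replicate 1 they were 0.09 and -0.10. TNC + TLR4i differed from untreated by -0.01 ± 0.08 (adjusted p = 0.989).

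Factor X (F10), the next protease in the chain and in the RefSeq table the neighbour of F7, behaved differently. Its brightest probe set read 8.35, 8.38 and 8.35 in TNC + TLR4i, 9.23, 9.24 and 9.37 in TNC + vehicle and 8.25, 8.50 and 8.38 in untreated arrays. The 3 TNC + vehicle arrays stood above all 6 others, and the other groups overlapped. TNC + vehicle was 0.90 ± 0.08 above untreated (adjusted p = 5.53e-06), TNC + TLR4i was -0.92 ± 0.07 from TNC + vehicle (adjusted p = 8.8e-07), and TNC + TLR4i differed from untreated by -0.02 ± 0.07 (95% interval -0.18 to 0.14; adjusted p = 0.98). Leaving out TNC + vehicle replicate 1 gave 0.92 and -0.94.

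Procr, the receptor that presents protein C for activation and is best known from endothelium, was at 8.06, 7.89 and 8.00 in TNC + TLR4i, 8.53, 8.23 and 8.50 in TNC + vehicle and 7.69, 7.82 and 7.67 in untreated arrays. The 3 groups did not overlap, with TNC + vehicle highest and untreated lowest. TNC + vehicle was 0.70 ± 0.09 above untreated (adjusted p = 0.000117), and 0.64 above it (adjusted p = 0.000532) without replicate 1. Of the 12 endothelial markers, only Kdr was called after TNC. Kdr was at 9.0 in TNC + vehicle replicate 1 and at 9.58 and 9.59 in replicates 2 and 3. Pecam1 was at 7.45, 6.43 and 6.42 in these arrays and at 6.51, 6.51 and 6.33 in untreated ones. The part of endothelial RNA in the Procr values was not tested. TNC + TLR4i lay between the others. It was -0.44 ± 0.09 from TNC + vehicle (adjusted p = 0.0033), which passed the limma test but was a 1.35-fold difference and not called. Without TNC + vehicle replicate 1 that difference was -0.38 (adjusted p = 0.013). TNC + TLR4i was 0.26 ± 0.07 from untreated (95% interval 0.10 to 0.42, adjusted p = 0.22).

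Urokinase (Plau), the activator of plasminogen, was at 8.44, 8.25 and 8.28 in TNC + TLR4i, 8.91, 8.64 and 8.69 in TNC + vehicle and 8.30, 8.20 and 8.54 in untreated arrays. The TNC + vehicle arrays were above all others, but by a small step. The differences of 0.40 ± 0.10 from untreated (1.32-fold; adjusted p = 0.0115) and, for TNC + TLR4i, of -0.42 ± 0.09 from TNC + vehicle (adjusted p = 0.00322) passed the limma test without reaching 1.5-fold, and so were not called. TNC + TLR4i differed from untreated by -0.02 ± 0.09 (adjusted p = 0.983). Without TNC + vehicle replicate 1, the highest of the 9, the first 2 differences were 0.32 (adjusted p = 0.0407) and -0.34.

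The urokinase receptor (Plaur), a surface protein anchored by a lipid, was at 8.27, 8.18 and 8.29 in TNC + TLR4i, 8.54, 8.40 and 8.44 in TNC + vehicle and 8.28, 8.31 and 8.27 in untreated arrays. Here too the TNC + vehicle arrays were the 3 highest. The difference from untreated was 0.18 ± 0.07 (95% interval 0.03 to 0.32; adjusted p = 0.0817), and TNC + TLR4i differed from TNC + vehicle by -0.22 ± 0.07 (adjusted p = 0.0438), which was not called and had an adjusted p = 0.127 without TNC + vehicle replicate 1. Between TNC + TLR4i and untreated the difference was -0.04 ± 0.06 (adjusted p = 0.941). Without replicate 1, TNC + vehicle differed from untreated by 0.14 (adjusted p = 0.206).

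Serpinb2, the inhibitor of urokinase, changed most of the 9 genes in both comparisons with TNC + vehicle. It was at 6.89, 6.68 and 6.65 in TNC + TLR4i, 8.40, 8.55 and 8.41 in TNC + vehicle and 7.19, 6.85 and 6.96 in untreated arrays. The TNC + vehicle arrays lay at least 1.21 above every other array, and the other groups overlapped, with 2 of 3 TNC + TLR4i arrays below all untreated ones. The rise over untreated was 1.45 ± 0.09 (95% interval 1.26 to 1.65; adjusted p = 3.24e-07), and with the inhibitor the difference from TNC + vehicle was -1.72 ± 0.08 (95% interval -1.90 to -1.54; adjusted p = 2.11e-08). TNC + TLR4i was -0.26 ± 0.09 from untreated (95% interval -0.46 to -0.06; adjusted p = 0.422), not called. Serpinb2 is near the floor outside TNC + vehicle, where RMA understates folds.

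F13a1, the catalytic subunit of factor XIII, a transglutaminase that macrophages also hold inside the cell, was at 7.85, 8.01 and 7.68 in TNC + TLR4i, 7.81, 7.55 and 7.39 in TNC + vehicle and 8.50, 8.17 and 8.42 in untreated arrays. Both TNC groups lay below all untreated arrays and overlapped each other. TNC + vehicle was -0.78 ± 0.11 from untreated (95% interval -1.02 to -0.54, adjusted p = 0.000293), and -0.89 from it (adjusted p = 9.21e-05) without replicate 1. TNC + TLR4i was 0.26 ± 0.11 above TNC + vehicle (95% interval 0.03 to 0.50; adjusted p = 0.113), not called, or 0.38 (adjusted p = 0.018) without TNC + vehicle replicate 1, still under 1.5-fold. F13a1 was also the 1 gene of the 9 whose TNC + TLR4i value passed the limma test against untreated, at -0.52 ± 0.10 (95% interval -0.73 to -0.30; adjusted p = 0.0362). That is 1.43-fold lower and not called, but it was called without untreated replicate 2 (-0.61; adjusted p = 0.0198) or without TNC + TLR4i replicate 2 (-0.60; adjusted p = 0.0246), and a fit over all 9 arrays gave an adjusted p = 0.0792.

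Thbs1, which also regulates angiogenesis and cell adhesion, was at 11.54, 11.53 and 11.79 in TNC + TLR4i, 10.42, 10.62 and 10.47 in TNC + vehicle and 11.69, 11.50 and 11.81 in untreated arrays. The 3 TNC + vehicle arrays were the lowest, by at least 0.88 below any other array, and the other groups overlapped. TNC + vehicle was -1.16 ± 0.09 from untreated (95% interval -1.36 to -0.97; adjusted p = 1.68e-06), and TNC + TLR4i was 1.12 ± 0.09 above TNC + vehicle (95% interval 0.93 to 1.31; adjusted p = 1.45e-06). TNC + TLR4i differed from untreated by -0.04 ± 0.09 (95% interval -0.24 to 0.16; adjusted p = 0.96). Of the 8 platelet markers measured, only Pf4 was called, higher in TNC + vehicle. The part of platelet RNA in the Thbs1 values was not tested.

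**Figure D2:**
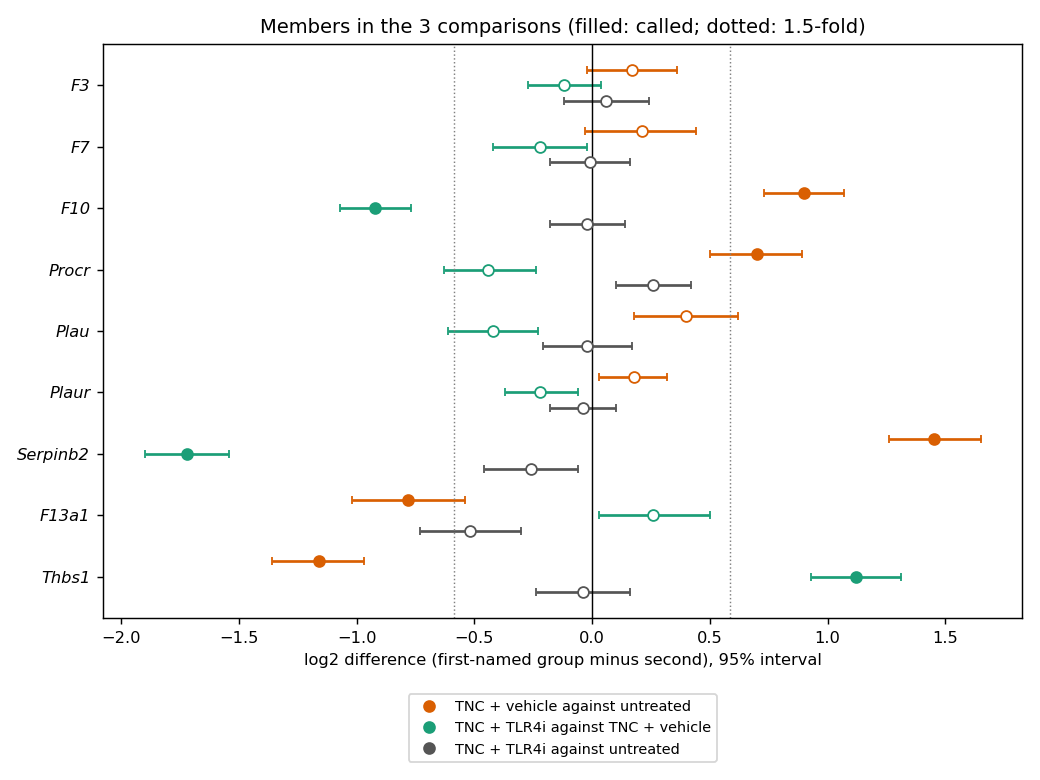
Log2 differences of the 9 genes in the 3 comparisons, with 95% intervals from limma (n = 3 arrays per group). Filled points are called genes. Serpinb2 and Thbs1 lie farthest from 0, on opposite sides, in both comparisons with TNC + vehicle, and F13a1 lies farthest from 0 in TNC + TLR4i against untreated.

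Where a gene had several probe sets, they moved the same way. The other 2 probe sets of F10 were 1.15 and 0.70 higher in TNC + vehicle than in untreated arrays (adjusted p = 1.28e-06 and 5.43e-05) and differed by -1.28 and -0.80 between TNC + TLR4i and TNC + vehicle (adjusted p = 6.2e-08 and 3.12e-05), all called. The second probe set of Thbs1 was -0.91 from untreated and 0.82 from TNC + vehicle in the same comparisons (adjusted p = 6.35e-05 and 6.13e-06), also called. That of Plau gave 0.46 and -0.53 (adjusted p = 0.00135 and 0.000817), again under 1.5-fold. None of these 4 probe sets was called in TNC + TLR4i against untreated, where they differed by -0.13, -0.10, -0.09 and -0.07 (adjusted p = 0.739, 0.872, 0.894 and 0.914, in the order F10, F10, Thbs1, Plau).

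**Figure D3:**
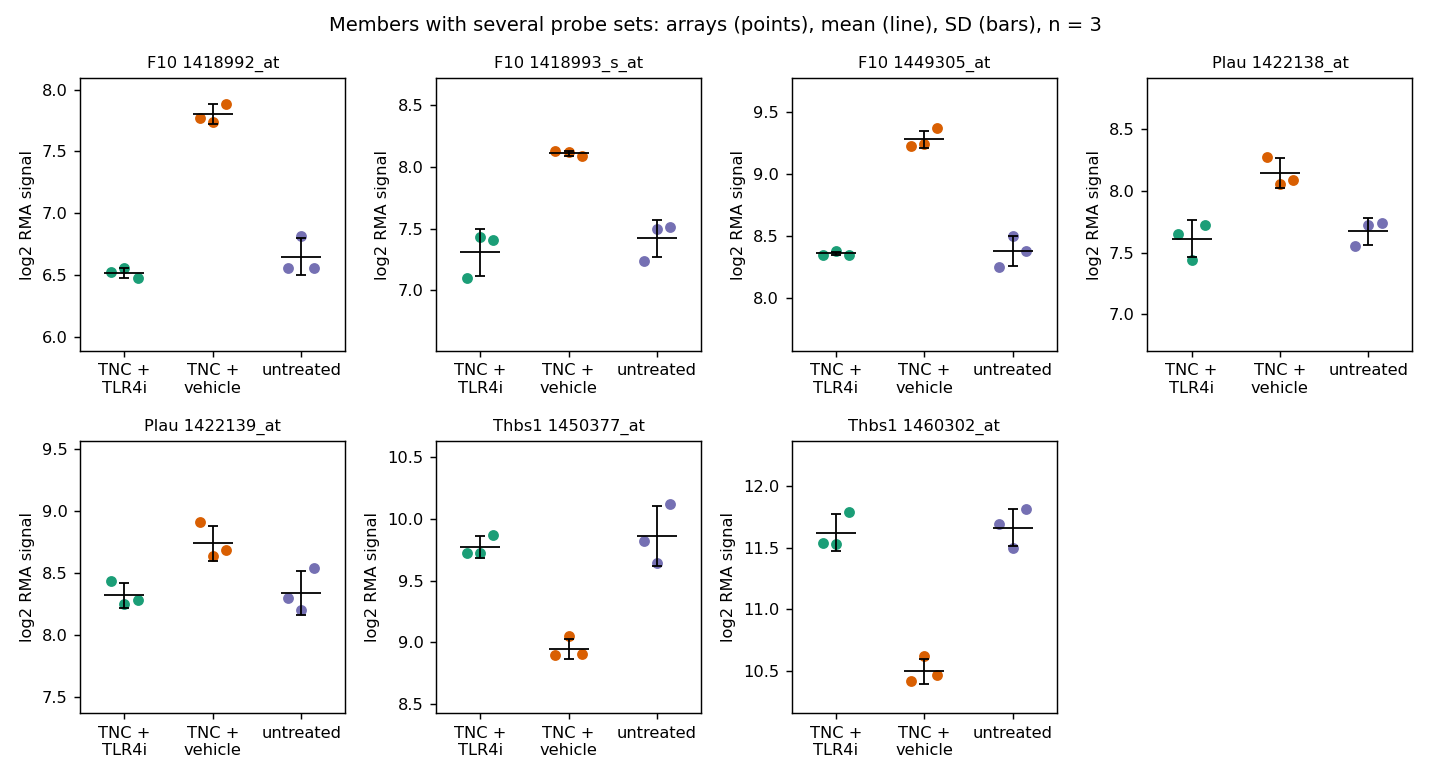
Log2 RMA signal of every probe set of F10, Plau and Thbs1, the genes with more than 1, in each array (points), with the group mean (line) and SD (bars, n = 3). Within a gene the probe sets lie at different levels and keep the same order of groups, with TNC + vehicle highest for F10 and Plau and lowest for Thbs1.

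Across the 9 arrays, other genes followed the 5 called ones closely. By Pearson's r of the brightest probe sets, Samsn1 (0.997) and Msr1 (0.995), a scavenger receptor of macrophages, were nearest to Serpinb2, and Aida (0.996) and Usb1 (0.995) nearest to F10. Nearest to Thbs1 were Ncoa3 (0.993), a coactivator of nuclear receptors, and Etfbkmt (0.99). For these 3 genes the number of others with r over 0.95 was large, at 673, 781 and 593, as the arrays fall into TNC + vehicle and the rest and every gene that separates them correlates. Procr had 30 such genes, led by the peptidase Dpp8 (0.983) and Aplp1 (0.983), and F13a1 had 3, led by Far1 (0.963), an enzyme of ether lipid synthesis, and Sema6d (0.953). The arrays were normalized together, and r here describes these 9 arrays.

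The wider pathway was read from 6 lists. Among 101 further genes on them, 83 were measured. In TNC + vehicle against untreated, 2 were called higher, 3 lower and 78 not called, with a median of 0.03 beside 0.01 over all genes. Over all genes 3.74% were called higher and 4.05% lower there. In TNC + TLR4i against TNC + vehicle, 5 were called higher, 3 lower and 75 not called (median 0.0), where 4.25% and 4.05% of all genes were called, and in TNC + TLR4i against untreated 0 of the 83 were called (median 0.02). The difference between these genes and the 9 was not tested.

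In the group of initiation and thrombin generation, which holds the clotting factors made by the liver, fibrinogen and the tissue factor inhibitor, 1 of 19 genes was called. This was Tgm2, tissue transglutaminase, an enzyme of the same family as factor XIII-A that is not a clotting factor. It was at 10.06, 9.90 and 9.90 in TNC + TLR4i, 11.27, 11.26 and 11.25 in TNC + vehicle and 9.62, 9.56 and 9.78 in untreated arrays. Its TNC + vehicle arrays were above all others. It rose by 1.60 after TNC (adjusted p = 3.45e-08), while F13a1 fell. With the inhibitor it fell by 1.31 relative to TNC + vehicle (adjusted p = 5.44e-08) and was 0.30 above untreated, not called (adjusted p = 0.17). Of its 5 other probe sets, 4 were called in the same directions, and the dimmest was not (0.15 and -0.03). Tfpi, the inhibitor of tissue factor and factor VIIa, differed by -0.17 and 0.18 (adjusted p = 0.087 and 0.0814), and was not called.

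In the anticoagulant group of 9 genes, Pros1, protein S, the cofactor of activated protein C, was the 1 gene called lower after TNC. It was at 10.27, 10.20 and 10.25 in TNC + TLR4i, 9.93, 9.77 and 9.70 in TNC + vehicle and 10.50, 10.38 and 10.41 in untreated arrays. The 3 groups did not overlap, with TNC + TLR4i between the others. It fell by 0.63 after TNC (adjusted p = 8.2e-05), and TNC + TLR4i differed by 0.44 from TNC + vehicle (adjusted p = 0.000962) and by -0.19 from untreated (adjusted p = 0.385), neither called. Thbd, thrombomodulin, which with thrombin activates protein C on Procr, read 8.22, 8.22 and 8.31 in TNC + TLR4i, 7.68, 7.46 and 7.70 in TNC + vehicle and 8.20, 8.15 and 8.24 in untreated arrays. Its TNC + vehicle arrays were the lowest. The difference from untreated, -0.58 (adjusted p = 0.000176), was just short of 1.5-fold and was called without untreated replicate 2 (-0.61) or TNC + vehicle replicate 1 or 3 (-0.62 and -0.63), and with array medians centred or array weights (-0.59 each). TNC + TLR4i was 0.63 above TNC + vehicle (adjusted p = 7.97e-05), a call. Of the pathway around protein C, the receptor Procr thus rose after TNC, while protein S fell and thrombomodulin was lower without a call. Calls of Pros1 and Thbd were at the edge of the fold threshold: Pros1 was -0.58 without TNC + vehicle replicate 3, and Thbd was 0.56 without TNC + vehicle replicate 2, neither called.

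In the plasminogen system, 1 of 12 genes measured was called in each of the comparisons with TNC + vehicle. Lrp1, the endocytic receptor that clears complexes of urokinase, its receptor and a serpin, was at 10.60, 10.64 and 10.58 in TNC + TLR4i, 9.89, 9.91 and 9.69 in TNC + vehicle and 10.55, 10.41 and 10.67 in untreated arrays. It fell by 0.72 after TNC (adjusted p = 7.81e-05) and was 0.78 higher with the inhibitor than in TNC + vehicle (adjusted p = 9.98e-06), and a second probe set was called in both (-0.63 and 0.66). Plat, tissue plasminogen activator, differed by 0.42 and -0.41 (adjusted p = 0.0268 and 0.0358), not called, with TNC + vehicle values of 7.69 in replicate 1, 7.12 in replicate 2 and 7.20 in replicate 3. Without replicate 1 the differences of Plat were 0.25 (adjusted p = 0.0321) and -0.23 (adjusted p = 0.0753). Plasminogen itself (Plg), made by the liver, differed by 0.04 and 0.00 (adjusted p = 0.791 and 0.98).

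Of 8 protease-activated and fibrin receptors measured, 1 was called. Itgav, the αv integrin chain, was 0.59 higher in TNC + TLR4i than in TNC + vehicle (adjusted p = 4.6e-05), but its 4 other probe sets were not called and the call was lost without TNC + vehicle replicate 1 or 3 (0.58 each) or TNC + TLR4i replicate 3 (0.55). The thrombin receptor F2r differed by 0.12 and 0.04 (adjusted p = 0.647 and 0.907). Of 7 thrombospondins and partners, Cd36, a scavenger receptor that binds Thbs1, was called. It was at 12.06, 12.06 and 12.14 in TNC + TLR4i, 11.08, 11.42 and 11.49 in TNC + vehicle and 11.53, 11.58 and 11.57 in untreated arrays. TNC + TLR4i was 0.76 above TNC + vehicle (adjusted p = 0.000112) and 0.53 above untreated (adjusted p = 0.0028, not called), and TNC + vehicle was -0.23 from untreated (adjusted p = 0.123). Its lowest value is that of TNC + vehicle replicate 1, without which the difference from untreated was -0.10 (adjusted p = 0.356) and that between TNC + TLR4i and TNC + vehicle 0.63, still called. Unlike Thbs1, Cd36 was thus highest with the inhibitor. Its dimmest probe set was called there against untreated (0.60, adjusted p = 0.00136), while its second brightest was not (0.33, adjusted p = 0.0368).

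Among 28 other serpins measured of 41, relatives of Serpinb2 moved in different directions. Serpinb9, an inhibitor of granzyme B, was at 7.87, 7.62 and 7.70 in TNC + TLR4i, 8.47, 8.28 and 8.31 in TNC + vehicle and 7.45, 7.54 and 7.60 in untreated arrays, and its TNC + vehicle arrays were highest. It rose by 0.83 after TNC (adjusted p = 7.86e-06) and fell by 0.62 with the inhibitor relative to TNC + vehicle (adjusted p = 0.000136), and a dimmer probe set differed by 0.47 and -0.44 without a call. The fall was below 1.5-fold without TNC + vehicle replicate 1 (-0.56) or TNC + TLR4i replicate 2 (-0.57). Serpinb6a, an intracellular inhibitor of trypsin-like and other proteases, was the opposite, with 13.16, 12.99 and 13.12 in TNC + TLR4i, 12.36, 12.11 and 12.19 in TNC + vehicle and 12.94, 12.89 and 13.03 in untreated arrays. It fell by 0.73 after TNC (adjusted p = 3.09e-05) and was 0.87 higher with the inhibitor than without (adjusted p = 7.3e-06). Serpinb8, an intracellular inhibitor of furin, read 8.11, 8.45 and 8.22 in TNC + TLR4i, 8.95, 9.21 and 9.24 in TNC + vehicle and 8.55, 8.87 and 8.50 in untreated arrays. It fell by 0.87 with the inhibitor relative to TNC + vehicle (adjusted p = 4.31e-05), and after TNC it differed by 0.49 (adjusted p = 0.00562), not called, or 0.59 and called (adjusted p = 0.00228) without TNC + vehicle replicate 1, and 0.61 and called (adjusted p = 0.00114) without untreated replicate 2. Serpinb1a, an inhibitor of neutrophil elastase, differed by -0.15 and -0.01 (adjusted p = 0.348 and 0.948).

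**Figure D4:**
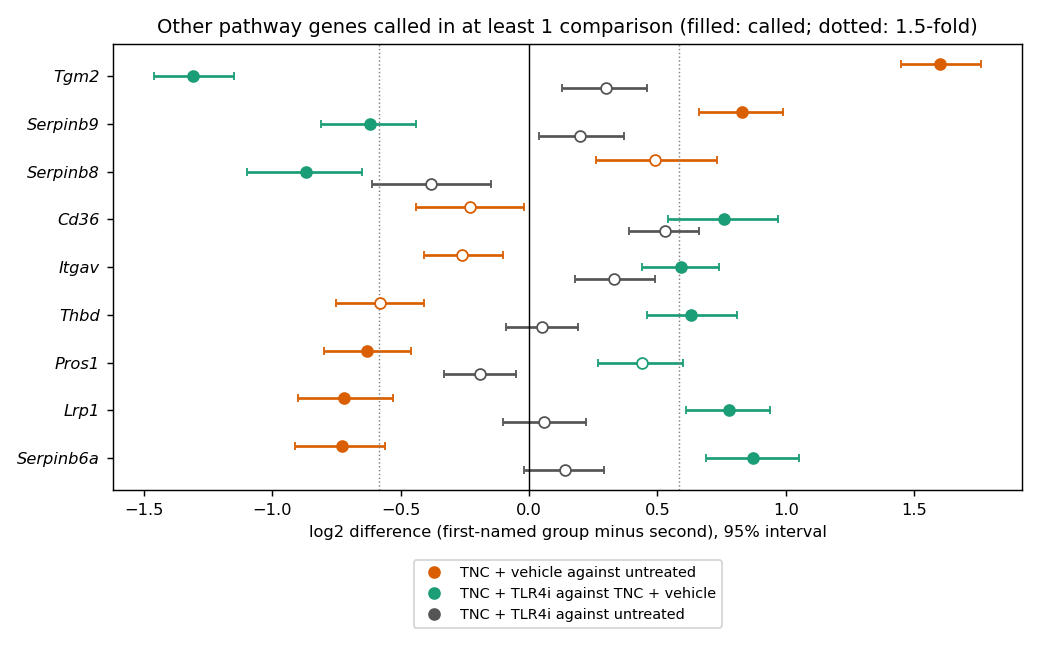
Log2 differences, with 95% intervals, of the pathway genes outside the 9 that were called in at least 1 comparison (n = 3 arrays per group), with filled points for calls and dotted lines at 1.5-fold. Tgm2 shows the largest differences of them in both comparisons with TNC + vehicle, and 0 of them are called in TNC + TLR4i against untreated.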

How the data were processed

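RNA was measured on 9 Affymetrix whole-genome mouse arrays. The authors used RMA in Chipster, and the deposited values are log2 signals, 1 for each probe set on each array. RMA corrects background, equalizes the arrays' distributions and summarises probes, so it leaves a floor under dim genes and would hide a change of total RNA. No detection call was used. Values ran from 5.44 to 14.69, with array medians of 6.72 to 6.74, and the number of arrays limits the precision. Of 45101 probe sets, 64 controls were left out. GEO's platform table named 1 gene for 34945, several for 932 and none for 9160 of the rest. Each gene is given by its brightest probe set over the 9 arrays. Tests were run in R 4.3.3 with limma 3.58.1 (lmFit, then eBayes, two-sided, on the 6 arrays of the groups compared), with Benjamini-Hochberg adjustment over 45037 probe sets, at an adjusted p under 0.05 and 1.5-fold. The fit was tested on simulated data. The 9 genes, the pathway lists and the naming rule were chosen with earlier results of these data known. The rule names all 9, up to 3 called genes per pathway list and comparison, 10 partners or relatives, and the 2 most correlated genes of each called one. Promoters came from RefSeq's table. The alternatives were leaving out each array, a replicate block, 1 fit over the 9 arrays, cyclic loess, centred medians, trend and robust eBayes, array weights, averaging a gene's probe sets, removing dim ones, other thresholds and treat (a test against 1.5-fold).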

Additional observations from a re-analysis of the deposited data

How the results depend on the processing

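The 5 calls after TNC and the 3 calls for the inhibitor against TNC + vehicle kept their direction in every alternative run, and were lost only at stricter fold rules. At a minimum fold of 2, 1 of the 9 genes was higher (Serpinb2) and 1 lower (Thbs1) in TNC + vehicle against untreated. In TNC + TLR4i against TNC + vehicle, 1 was lower (Serpinb2), and Thbs1 stayed called higher (2.17-fold). The treat test lost Procr and F13a1, which left 1 lower gene after TNC. With no minimum fold, 5 genes were lower in TNC + TLR4i against TNC + vehicle, and 1 (F13a1) in TNC + TLR4i against untreated. The shares of all genes called under these other fold rules were not counted, so whether these counts exceed them is not known. Leaving out single arrays gave 0 to 1 lower gene in TNC + TLR4i against untreated, the 1 being F13a1. Signs turned only for uncalled differences in that comparison, which over the left-out arrays ran from -0.04 to 0.11 for F3, -0.09 to 0.06 for F7, -0.08 to 0.04 for F10, -0.09 to 0.08 for Plau and -0.13 to 0.03 for Thbs1, and among named pathway genes from -0.01 to 0.12 for Lrp1, -0.02 to 0.03 for Tfpi and -0.04 to 0.06 for Plat. Tfpi was also -0.01 there after cyclic loess. F3 has no value with dim probe sets left out.

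The alternatives for the pathway genes were added after seeing the data. Without a minimum fold, 9 were higher and 10 lower in TNC + vehicle against untreated, 13 higher and 5 lower in TNC + TLR4i against TNC + vehicle, and 1 higher (Cd36) in TNC + TLR4i against untreated. With treat or a minimum fold of 2, the first 4 of these counts were 1, 0, 0 and 1. For the pathway genes too, the shares of all genes under these rules were not counted, so the counts cannot be set against them. Cyclic loess took Pros1 to -0.56 after TNC and Itgav to 0.49 with the inhibitor, and averaged probe sets took Itgav to 0.23 and Serpinb9 to -0.53 with the inhibitor, all below 1.5-fold. Centred medians or array weights gave 4 lower pathway genes after TNC in place of 3, as Thbd was called (-0.59 each).

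Replicate numbers are shared between groups, and deviations of same-numbered arrays correlated at -0.096 to 0.136. These values cannot say whether same-numbered samples were prepared together, and the main fit used no pairing. With a replicate block, 3 of the 9 genes were higher and 2 lower after TNC, 1 higher and 2 lower with the inhibitor against TNC + vehicle, and 0 in TNC + TLR4i against untreated, where the adjusted p of F13a1 was 0.0764. Dim genes such as F3 and F7 are limited by the floor of the arrays.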
